A study of Erythranthe nudata with 6 samples.

Results

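The genes described here were well read in the ovule-bearing tissue of wild-type monkeyflowers and almost unread in a mutant with carpel-like ovules. They were chosen on their levels: at least 10 CPM (a read count expressed relative to the total of its library, with no other scaling) in each of the 3 wild-type libraries, and below 1 CPM in each of the 3 mutant libraries. Of the 28064 genes counted, 62 met this rule. The rule used the same counts as the comparison of the genotypes, so the loss itself is a description and carries no test.

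The plants were Mimulus nudatus, also named Erythranthe nudata, all descended from 1 inbred line (GMR2) that had been selfed for at least 6 generations. Plants with carpel-like ovules arose by chance in that line and gave pollen to wild-type plants, and the recessive trait returned in the F2. The wild-type group consisted of 3 homozygous wild-type plants and the mutant group of 3 homozygous mutant plants, found by phenotype and genotype among 150 F2 plants. All grew under 18-hour days at 21 °C. From each plant, 6 gynoecia of open flowers were taken, the ovary walls were removed, and RNA was extracted from the replum with its ovules. Each library therefore pools the gynoecia of 1 plant, and the 3 libraries of a group are biological replicates. The mutated gene is not named in the labels, so no transcript serves as a check of the genotypes.

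An ovule consists of a nucellus, in which the embryo sac forms, and of integuments, which enclose the nucellus and later become the seed coat. The embryo sac holds the egg cell, the central cell, the synergids that attract the pollen tube, and the antipodal cells. In Arabidopsis, ovule identity depends on MADS-box transcription factors such as SEEDSTICK and on the homeodomain protein BELL1, and loss of these factors can turn integuments into carpel-like structures. In the series title the mutant is called Medusa, and the title places its defect in the identity of the integuments and the development of the embryo sac. The deposited table gives identifiers only and pairs none with a name, so no role can be given to any of the 62 genes, and markers of the ovule, the embryo sac, pollen or the carpel could not be read.

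Library totals ranged from 35487055 to 45149217 counts, so 1 count corresponded to 0.0221 to 0.0282 CPM. Each mutant library had fewer genes at 1 CPM or more (16605 to 17199) than any wild-type library (17769 to 18308). Same-group libraries differed by more than sampling noise, with a chi-square over its degrees of freedom never under 192. It ran from 192 to 266 between wild-type libraries and from 318 to 487 between mutant libraries. Between the genotypes it ran from 331 to 472, so mutant replicates 1 and 2, at 487, differed more than any pair of unlike genotype. In such bulk tissue, fewer cells of a type and less RNA per cell cannot be told apart, and the label of these genes as ovule transcripts rests on the dissection, which also contained replum.

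The 62 genes were a small tail of the genes read well in the wild type. At least 10 CPM in every wild-type library was reached by 10124 genes, and the 62 were 0.612% of these. Among the same 10124 genes, the highest mutant library lay from 1 to below 2 CPM for 33 genes, from 2 to below 5 CPM for 69 and from 5 to below 10 CPM for 164, so the levels ran on without a gap. With the genotypes exchanged, the rule was met by 0 of the 9135 genes that had at least 10 CPM in each mutant library. At a minimum of 5 CPM it was met by 110 genes in the wild-type direction and by 0 in the other. The plot of the lowest wild-type against the highest mutant level shows the members below the dashed line at 1 CPM.

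**Figure D1:**
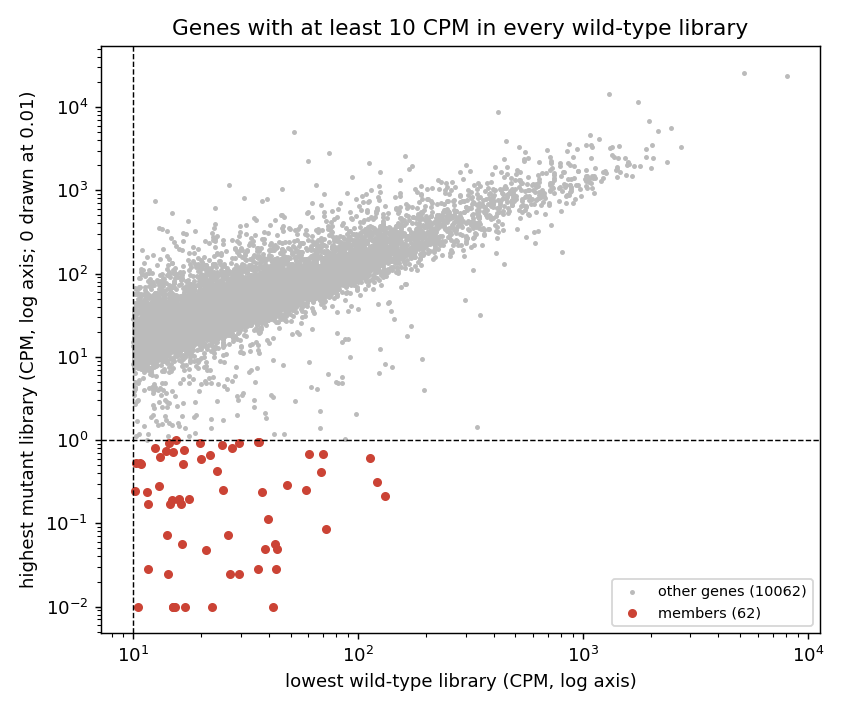
Lowest wild-type library (x, CPM, log axis) against highest mutant library (y, CPM, log axis, with 0 drawn at 0.01) for the 10124 genes with at least 10 CPM in every wild-type library. Red points are the 62 members and grey points the 10062 other genes; the dashed lines are the thresholds of 10 and 1 CPM.

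Genes on either side of the thresholds were close in level. On the wild-type side, the members nearest the limit were MgTOL.M1015.v5.0, with a lowest wild-type level of 10.2 CPM, MgTOL.A0506.v5.0 with 10.3 CPM and MgTOL.K1228.v5.0 with 10.4 CPM. Just outside lay MgTOL.L0565.v5.0 with 9.92 CPM, MgTOL.B0676.v5.0 with 9.59 CPM and MgTOL.H1862.v5.0 with 9.52 CPM. On the mutant side, the highest mutant level was 0.999 CPM in MgTOL.C0564.v5.0 and 0.950 CPM in both MgTOL.C0850.v5.0 and MgTOL.K0270.v5.0, all in mutant replicate 1. Just outside were MgTOL.D1645.v5.0 at 1.01 CPM, MgTOL.D0516.v5.0 at 1.02 CPM and MgTOL.D0829.v5.0 at 1.04 CPM. MgTOL.D0516.v5.0 had 133, 87.2 and 98.6 CPM in the wild type, so a gene read more deeply than most members was kept out by 1 mutant library.

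The members were not the most abundant transcripts of the tissue. Their mean wild-type level spanned 13.4 to 329.8 CPM around a median of 37.1 CPM, while the 10062 other genes with the same wild-type minimum had a median of 37.4 CPM. A mean of at least 100 CPM was reached by 8 members and one of at least 50 CPM by 18. Only 2 members stood among the 1000 genes with the highest wild-type means, the first at rank 488. Levels are not divided by gene length, so the order of the members is one of reads and not of transcript numbers.

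MgTOL.H0169.v5.0 had the highest mean. Its level was 691, 177 and 121 CPM in wild-type replicates 1 to 3 (329.8 ± 314 CPM, SD, n = 3) and 0.317, 0.0564 and 0.119 CPM in the mutant plants, from 13, 2 and 5 counts. Wild-type replicate 1 was several times higher than the other wild-type plants. The lowest wild-type plant was still far above every mutant plant, as the rule requires. MgTOL.O1015.v5.0 followed with 308, 113 and 158 CPM in the wild type and 0.609, 0.0845 and 0.0238 CPM in the mutant. MgTOL.A0946.v5.0 had 216, 210.4 and 60.1 CPM in the wild type and 0.341, 0.676 and 0.381 CPM in the mutant. In MgTOL.O1015.v5.0 the reads left in the mutant were mostly from replicate 1, and in MgTOL.A0946.v5.0 they were spread over all mutant plants.

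MgTOL.C1015.v5.0 was the most even of the highly read members, with 131, 146 and 135 CPM in the wild type and 0.171, 0.0564 and 0.214 CPM in the mutant. Its coefficient of variation (CV, the SD divided by the mean) among wild-type plants was 5.69%. MgTOL.I0921.v5.0 had 133, 92.3 and 71.7 CPM in the wild type and 0.0487, 0.0845 and 0.0476 CPM in the mutant, where each plant gave 2 or 3 counts. In both members the lowest wild-type plant lay far above the highest mutant plant, a separation that the rule requires of every member.

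Other highly read members showed the same distance with a larger wild-type spread. The wild-type plants had 232, 58.3 and 71.8 CPM of MgTOL.H2549.v5.0, 171, 54.8 and 48.3 CPM of MgTOL.I1072.v5.0 and 165, 43.7 and 53.7 CPM of MgTOL.C0900.v5.0. In the mutant these genes had 11, 19 and 2 counts over all libraries. Replicate 1 was the highest wild-type plant in each. MgTOL.G0633.v5.0 kept more reads in the mutant, with 164, 69.3 and 110.1 CPM in the wild type and 0.682, 0.648 and 0.405 CPM in the mutant. The plot of all members by library shows that no wild-type point fell below 10 CPM and no mutant point reached 1 CPM, as the rule demands.

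**Figure D2:**
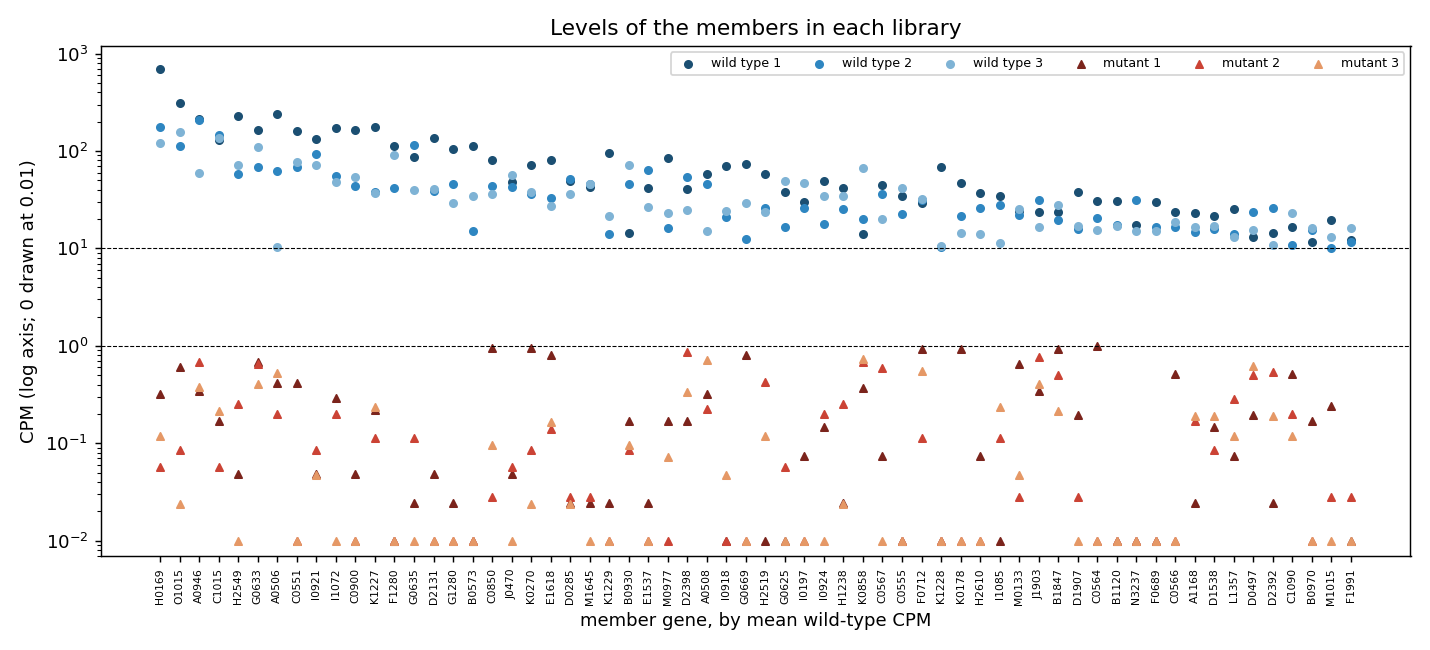
Level of each of the 62 members (x, ordered by mean wild-type CPM, identifiers shortened) in each of the 6 libraries (y, CPM, log axis, 0 drawn at 0.01, where points of several mutant libraries overlap). Blue circles are the 3 wild-type plants, red and orange triangles the 3 mutant plants, and dashed lines the thresholds of 10 and 1 CPM.

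Together the members took 0.512%, 0.256% and 0.237% of the counts in wild-type replicates 1 to 3, or 0.335% ± 0.154 (SD, n = 3). In the mutant they took 0.00158%, 0.000961% and 0.000728%, or 0.00109% ± 0.000441 (SD, n = 3), from 649, 341 and 306 counts. The mean share was 307 times higher in the wild type. Without mutant replicate 1 or 2 the rule took in more genes, and the mutant share of its genes was 0.00171% or 0.00170%. The pooled level of a member (counts of the 3 plants over the sum of their totals) was at least 100 times higher in the wild type for 50 of the 62 and at least 1000 times higher for 20, with a median of 370.4. In these figures, genes at 0 counts were set at 3 counts over the 3 mutant libraries, which equals 0.0253 CPM. Values ran from 40.4 for MgTOL.D0497.v5.0 (95% counting interval 30.7 to 54.3) to 6911 for MgTOL.G1280.v5.0, which had a single mutant read and an interval of 1240 to 273018. All such intervals and limits pool the reads of 3 plants and leave out the variation among plants, which was large (median wild-type CV of the members 44.3%). They cover counting error only, and even that could be understated, as PCR copies of a molecule are not independent.

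Members named here outside the 30 chosen by level, spread and threshold were picked after their values were seen. No read of 7 members was found in any mutant plant. The highest of these was MgTOL.F1280.v5.0, with 4279, 1894 and 3872 counts in the wild-type plants (82.0 ± 36.4 CPM, SD, n = 3), at least 3161-fold lower in the mutant. MgTOL.B0573.v5.0 had 4293, 688 and 1467 counts (54.4 ± 52.1 CPM) and was at least 2029-fold lower. MgTOL.C0555.v5.0 had 1301, 1011 and 1781 counts (32.9 ± 9.79 CPM) and was at least 1288-fold lower. The 4 others were MgTOL.K1228.v5.0, MgTOL.N3237.v5.0, MgTOL.B1120.v5.0 and MgTOL.F0689.v5.0, with means of 20.5 to 29.8 CPM, and were lower by factors of at least 791 to 1102. A count of 0 in a mutant library allows a level of up to 0.0714 to 0.0845 CPM. MgTOL.K1228.v5.0 rested on wild-type replicate 1 more than the others did, with 2579 counts against 471 and 454. Without mutant replicate 1, the rule admitted more genes and 21 of them were at 0 in the other mutant plants.

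Reads were left in the mutant for the other 55 members. The total over the 3 mutant libraries was 1 to 3 counts for 12 members, 4 to 20 for 20 members and more than 20 for 23 members, with a maximum of 70. Reads of 27 members were found in all 3 mutant plants, and 16 members were at 0 in 2 of them. The number of members at 0 was 12, 22 and 31 in mutant replicates 1 to 3, and these libraries held 41038769, 35487055 and 42009912 counts, so the order does not follow depth.

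The 5 highest mutant means lay between 0.502 and 0.593 CPM. MgTOL.K0858.v5.0 had 0.593 ± 0.200 CPM in the mutant (SD, n = 3) against 14.0, 20.1 and 66.5 CPM in the wild type. MgTOL.G0633.v5.0 had 0.578 ± 0.151 CPM, MgTOL.B1847.v5.0 had 0.549 ± 0.358 CPM, MgTOL.F0712.v5.0 had 0.529 ± 0.407 CPM and MgTOL.J1903.v5.0 had 0.502 ± 0.226 CPM. Across the 62 members, the mean wild-type level and the mean mutant level had a Spearman correlation of 0.03, given as a description over genes that share the same 6 libraries.

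The reads left came from different mutant plants for different members. Of the summed mutant level of the members, 48.4% was in mutant replicate 1, 29.4% in replicate 2 and 22.3% in replicate 3. Among the 38 members with at least 10 mutant counts, 10 had at least 80% of their mutant CPM in replicate 1, 3 had it in replicate 2 and 0 in replicate 3. MgTOL.C0564.v5.0 had 41, 0 and 0 counts in the mutant plants, MgTOL.K0178.v5.0 had 38, 0 and 0, and MgTOL.G0669.v5.0 had 33, 0 and 0. MgTOL.C0566.v5.0 had 21, 0 and 0 counts and MgTOL.C0551.v5.0 had 17, 0 and 0. Reads in replicate 1 alone were found for 13 members in all, and the 8 others of these had at most 7 counts. MgTOL.C0850.v5.0, with 39, 1 and 4 counts, MgTOL.K0270.v5.0, with 39, 3 and 1, and MgTOL.M0133.v5.0, with 27, 1 and 2, showed the same order with a few reads elsewhere.

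Other members kept their reads in replicate 2. MgTOL.C0567.v5.0 had 3, 21 and 0 counts, MgTOL.H1238.v5.0 had 1, 9 and 1, and MgTOL.H2549.v5.0 had 2, 9 and 0. A further set was even across the mutant plants, such as MgTOL.G0633.v5.0 with 28, 23 and 17 counts and MgTOL.A0946.v5.0 with 14, 24 and 16. Among the 10062 other genes with the wild-type minimum of the rule, the highest mutant plant was replicate 1 for 31.3%, replicate 2 for 32.7% and replicate 3 for 36.0%. Among the 55 members with a mutant read it was replicate 1 for 28, replicate 2 for 17 and replicate 3 for 10. Whether this order differs from that of other genes was not tested. The bars of mutant counts by plant show the members with reads in replicate 1 alone as single dark columns.

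**Figure D3:**
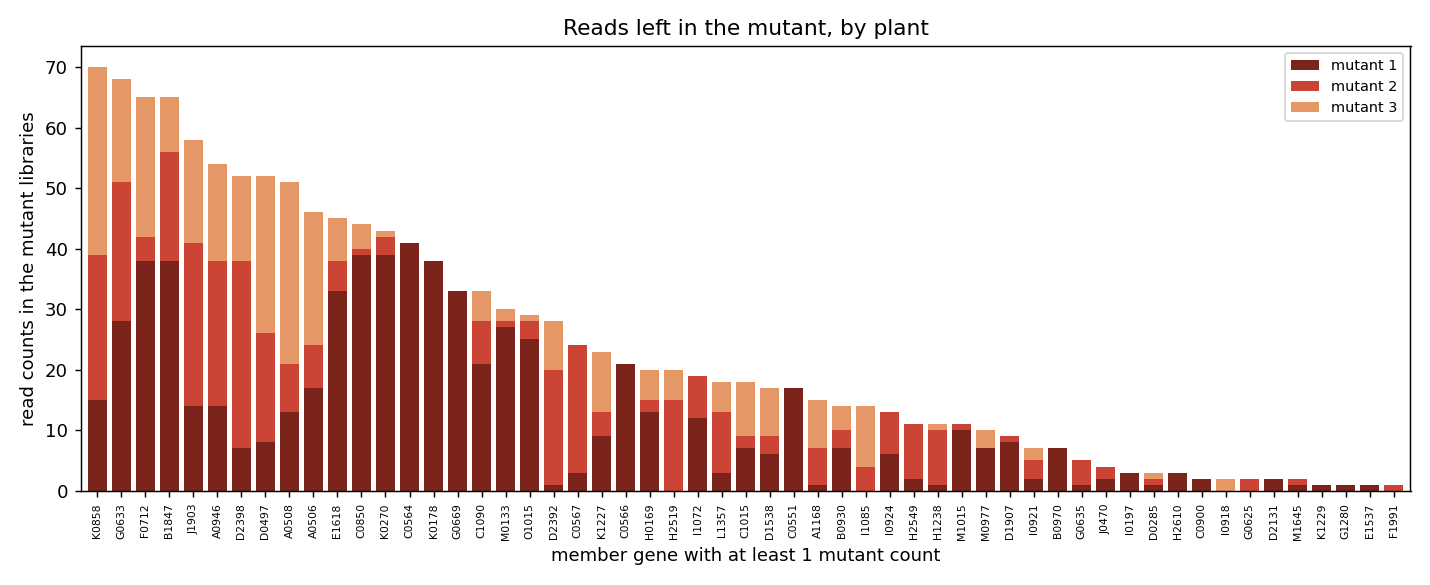
Read counts of the 55 members with at least 1 mutant count (x, ordered by their total, identifiers shortened) in the 3 mutant libraries (y, stacked counts, from 0). Dark red is mutant replicate 1, red replicate 2 and orange replicate 3; the totals run from 70 down to 1.

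Leaving out single libraries showed which plants set the border of the group. Without mutant replicate 1 the rule was met by 89 genes, that is by 27 more, whose level in that plant was 2.61 CPM at the median and at most 11.4 CPM. It added 14 genes without mutant replicate 2, with a median of 1.90 CPM and at most 43.0 CPM in that plant, and 5 without mutant replicate 3, with at most 2.24 CPM. The highest level in any plant left out was thus in mutant replicate 2. One gene added in this way, MgTOL.C0570.v5.0, named after its values were seen, had 199, 126 and 92.1 CPM in the wild type and 9.89, 0.0282 and 0.714 CPM in the mutant. MgTOL.F1987.v5.0, named in the same way, had 196, 93.4 and 73.2 CPM in the wild type and 6.14, 0 and 0 CPM in the mutant. Without wild-type replicates 1 to 3, the rule added 8, 11 and 14 genes.

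Of the 62 members, 58 were called lower in the mutant by edgeR's quasi-likelihood test across 20305 genes (Benjamini-Hochberg adjusted p below 0.05), and all 62 passed its filter on low counts. Of all genes tested, 1.52% were called in either direction and 1.21% lower, and nothing is read from the difference, since the rule used the same contrast. The smallest adjusted p were 0.000339 for MgTOL.D0285.v5.0, with 49.6, 51.1 and 35.8 CPM in the wild type and 1 count in each mutant plant, and 0.000431 for MgTOL.I0921.v5.0. Their log2 fold changes were -10.45 and -10.41, with SEs of 0.38 and 0.44 back-calculated from the fold change and the test statistic. These SEs understate the error of the fold changes. The 95% counting intervals of the pooled ratios, 614 to 8710 and 802 to 4111, were wider than such SEs allow. Both were also called in each of the 14 alternative fits, where the adjusted p was at most 0.0211.

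The 4 members not called were MgTOL.C0566.v5.0 (adjusted p 0.0833), MgTOL.G0669.v5.0 (0.102), MgTOL.K0178.v5.0 (0.125) and MgTOL.C0564.v5.0 (0.146), named for their small number after their values were seen, apart from the last. All 4 were read in mutant replicate 1 alone. Without that library their edgeR adjusted p were 0.00683, 0.0259, 0.0140 and 0.00846. Over all alternatives the adjusted p ranged from 0.00683 to 0.248 for MgTOL.C0566.v5.0, from 0.0259 to 0.300 for MgTOL.G0669.v5.0, from 0.0140 to 0.339 for MgTOL.K0178.v5.0 and from 0.00846 to 0.351 for MgTOL.C0564.v5.0. MgTOL.C0551.v5.0, also read in that plant alone, was called with an adjusted p of 0.0286, and its wild-type level was higher, at 162, 68.2 and 76.5 CPM.

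The number of members called changed with the library left out. It fell to 32 when wild-type replicate 1 was left out and to 37 when either of the other wild-type plants was. The number was 60 with mutant replicate 1 left out, 41 with replicate 2 and 35 with replicate 3. Of all genes tested, 1.21% were called lower with all libraries, and 0.289%, 0.298% and 0.342% without wild-type replicates 1 to 3. Without mutant replicates 1 to 3 the share was 1.93%, 0.627% and 0.356%. Calls thus moved among all genes too, and nothing is read from the comparison, since the rule used the same contrast. A set of 26 members was called with all libraries and also whichever of the 6 was dropped. How many other genes met this was not counted. These 26 had a median mutant mean of 0.0216 CPM and a median wild-type CV of 39.7%, and the other 36 had 0.206 CPM and 49.3%. The calls depend on the mutant level and on the spread, so the direction of this difference was all but fixed in advance. The sign of the change was negative for every member in all 14 alternative fits, which the rule on the same counts all but fixed in advance.

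The wild-type plants differed among themselves more than for most genes of that level. The median CV of the members among the 3 wild-type plants was 44.3%, with quartiles of 31.7% and 64.2%, while the 10062 other genes had a median of 20.9% and quartiles of 13.1% and 30.9%. The highest wild-type plant was at least 2 times the lowest for 39 members (62.9%) and for 17.6% of the others. It was at least 5 times the lowest for 7 members (11.3%) and for 0.825% of the others. With 3 plants and genes that share the same libraries, no test of this difference was made.

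Wild-type replicate 1 was the highest plant for 40 of the 62 members (64.5%), replicate 2 for 10 and replicate 3 for 12. Among the other genes replicate 1 was highest for 48.6%. Replicate 1 was at least 2-fold above the mean of the other wild-type plants for 21 members (33.9%) and for 3.09% of the others. The median member stood 0.57 above its wild-type mean in replicate 1 on the log2 scale, and 0.25 and 0.36 below it in replicates 2 and 3. For the other genes these medians were 0.11, -0.02 and -0.08. Between wild-type replicates 2 and 3, with replicate 1 left aside, 15 members (24.2%) differed at least 2-fold, as did 6.21% of the others. The plot of deviations shows the member points for replicate 1 spread mostly above the boxes.

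**Figure D4:**
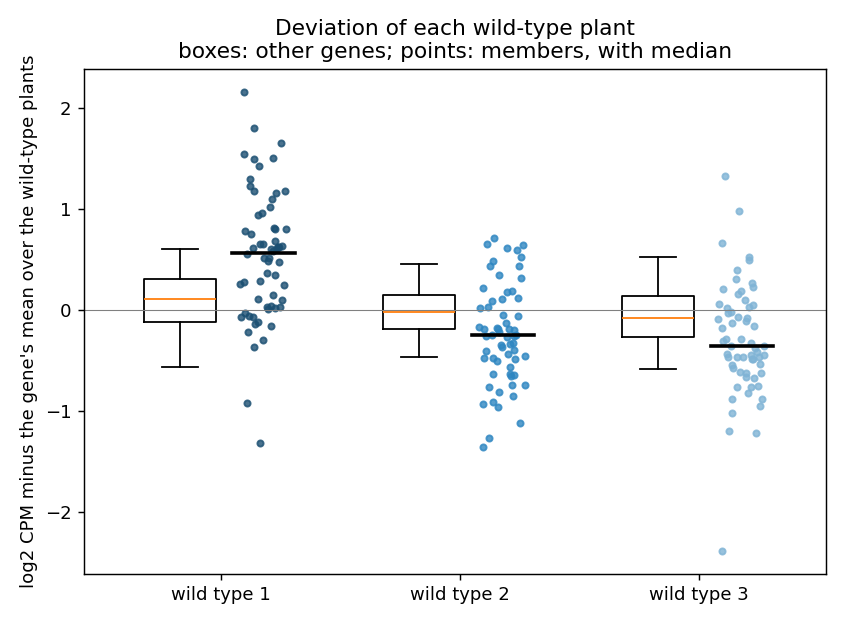
Deviation of each wild-type plant from a gene's mean over the 3 wild-type plants (y, log2 CPM) for wild-type replicates 1 to 3 (x). Boxes show the 10062 other genes with the same wild-type minimum (median, quartiles, whiskers at the 5th and 95th percentiles), points the 62 members and black bars their medians of 0.57, -0.25 and -0.36.

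The members with the widest wild-type spread were MgTOL.A0506.v5.0, MgTOL.K1228.v5.0, MgTOL.K1229.v5.0, MgTOL.K1227.v5.0 and MgTOL.B0573.v5.0, with CVs of 115%, 112%, 104%, 96.3% and 95.8%. All 5 were highest in replicate 1. MgTOL.A0506.v5.0 had 238, 62.2 and 10.3 CPM, a factor of 23.2 between plants. The narrowest were MgTOL.M1645.v5.0, MgTOL.F0712.v5.0, MgTOL.C1015.v5.0, MgTOL.M0133.v5.0 and MgTOL.J0470.v5.0, with CVs of 3.26%, 4.47%, 5.69%, 8.03% and 13.9%. MgTOL.M1645.v5.0 had 43.2, 45.9 and 45.6 CPM in the wild type and 1, 1 and 0 counts in the mutant.

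A minority of the members ran against replicate 1. MgTOL.K0858.v5.0 had 14.0, 20.1 and 66.5 CPM in the wild type, with replicate 3 highest. MgTOL.B0930.v5.0 had 14.6, 46.1 and 71.3 CPM and was lowest in replicate 1. The members thus did not rise and fall together among the wild-type plants, although most leaned to replicate 1.

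Identifiers carry a letter and a number, and the 62 members came from all 15 letter series. The C series held 9 members, 1.86% of its 485 genes with the wild-type minimum, and the N series held 1, or 0.0730% of 1369. Series D held 7 members, series I and K 6 each, and series B, G and H 5 each. Whether letters and numbers follow the genome is not given in the sources used here, and positions were not used.

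Several members had neighbouring numbers. Another member lay within 10 numbers for 18 of the 62 members (29.0%), while a member lay within 10 numbers of 3.94% of the 10124 genes with the wild-type minimum. A directly adjacent number belonged to a member for 5 members (8.06%) and for 0.454% of the 10124 genes. The distance of 10 numbers was chosen after the identifiers were seen, and no test was made. Without mutant replicate 1, which admits more genes, the number with another near was 28. The 18 members formed 6 groups, of 5 in series C, 3 each in G, I and K, and 2 each in A and D. Neighbouring genes can be near-identical copies among which reads are split, which was not examined, so the levels of single members in these groups are uncertain.

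MgTOL.K1227.v5.0, MgTOL.K1228.v5.0 and MgTOL.K1229.v5.0 formed the longest unbroken run. They had 178, 37.7 and 37.2 CPM, 68.2, 10.4 and 10.6 CPM, and 96.5, 14.2 and 21.3 CPM in wild-type replicates 1 to 3. Replicate 1 stood 4.76, 6.47 and 5.43 times above the mean of the other wild-type plants. In the mutant they had 23, 0 and 1 counts in all. None of the 10 genes within 5 numbers of the run was called lower, though in 5 of them every wild-type library was above every mutant library. How many of all genes were separated in this way was not counted.

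Around the I series members the neighbours were low in the mutant too. MgTOL.I0918.v5.0 had 70.3, 21.0 and 24.3 CPM in the wild type and 2 mutant counts, and MgTOL.I0924.v5.0 had 49.0, 17.7 and 34.6 CPM and 13 mutant counts. MgTOL.I0921.v5.0 lies between them by number. From MgTOL.I0917.v5.0 to MgTOL.I0926.v5.0, all 10 consecutive genes had every wild-type library above every mutant library, and 9 of them were highest in wild-type replicate 1. This run was picked as the longest of its kind among the numbers around these members. The share of all genes with such a separation was not computed, so how unusual the run is cannot be said. The 3 members and 2 of the others were called lower by edgeR, and 2 genes had 0 counts in the mutant.

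The other genes of this run, named after their values were seen, are no members. MgTOL.I0919.v5.0 had 6.14, 3.74 and 3.54 CPM in the wild type and 0 counts in the mutant (edgeR adjusted p = 0.0185). MgTOL.I0923.v5.0 had 27.0, 10.4 and 7.83 CPM against 0.585, 0.0564 and 0.286 CPM (adjusted p = 0.0418). MgTOL.I0922.v5.0 had 51.7, 28.9 and 22.2 CPM against 1.41, 0 and 0.238 CPM (adjusted p = 0.0918), and was kept out of the members by mutant replicate 1. MgTOL.I0917.v5.0 and MgTOL.I0920.v5.0 had adjusted p of 0.0616 and 0.0680. MgTOL.I0925.v5.0 had at most 0.291 CPM in any library and was not tested, and MgTOL.I0926.v5.0 had 6.32, 6.69 and 20.4 CPM against 0.536, 2.45 and 1.76 CPM (adjusted p = 0.155). Farther out, levels of the genotypes overlapped in some genes: MgTOL.I0913.v5.0 had 53.9, 43.3 and 53.5 CPM against 23.7, 49.7 and 43.4 CPM, and MgTOL.I0928.v5.0 had 78.7, 84.1 and 66.8 CPM against 59.3, 65.5 and 91.0 CPM.

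The C series members were separated by genes that were not called lower or were too little read to be tested. Between MgTOL.C0551.v5.0 and MgTOL.C0567.v5.0 lay 12 genes that are no members, and 0 of them were called lower. Of these, MgTOL.C0559.v5.0, MgTOL.C0561.v5.0, MgTOL.C0562.v5.0, MgTOL.C0563.v5.0 and MgTOL.C0565.v5.0 had at most 0.258 CPM in any library. They were not tested and so could not be called. Just past the group, MgTOL.C0570.v5.0 had 199, 126 and 92.1 CPM in the wild type and 9.89, 0.0282 and 0.714 CPM in the mutant (edgeR adjusted p = 0.199). MgTOL.C0552.v5.0, the number after the first member, had 32.4, 44.1 and 46.3 CPM in the wild type and 31.0, 43.8 and 51.2 CPM in the mutant. MgTOL.C0555.v5.0 was at 0 in the mutant, while MgTOL.C0553.v5.0 had 13.0, 11.6 and 9.03 CPM against 15.4, 15.9 and 25.7 CPM. Of the 5 members, MgTOL.C0551.v5.0, MgTOL.C0564.v5.0 and MgTOL.C0566.v5.0 had reads in mutant replicate 1 alone, and MgTOL.C0567.v5.0 had most of its reads in replicate 2.

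In the A series genes with the opposite change stood near the members. MgTOL.A0506.v5.0 and MgTOL.A0508.v5.0 had 103.6 ± 119.6 and 39.7 ± 22.1 CPM in the wild type and 0.378 ± 0.166 and 0.419 ± 0.260 CPM in the mutant (SD, n = 3 each). Both were lowest in wild-type replicate 3. MgTOL.A0509.v5.0, named after its values were seen, had 2.91, 3.50 and 9.03 CPM in the wild type and 46.0, 58.9 and 32.0 CPM in the mutant, with no overlap of the genotypes (edgeR adjusted p = 0.0433). It was highest in the wild-type plant in which the members beside it were lowest. MgTOL.A0505.v5.0 and MgTOL.A0504.v5.0, named in the same way, were also without overlap but were not called (edgeR adjusted p = 0.0719 and 0.0831). MgTOL.A0505.v5.0 had 0.688, 0.288 and 0.305 CPM in the wild type and 2.92, 6.96 and 1.98 CPM in the mutant. MgTOL.A0504.v5.0 had 0.106, 0.199 and 0.164 CPM against 0.975, 1.18 and 1.31 CPM. The plot by identifier number shows the I, K and C groups with the genes on either side.

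**Figure D5:**
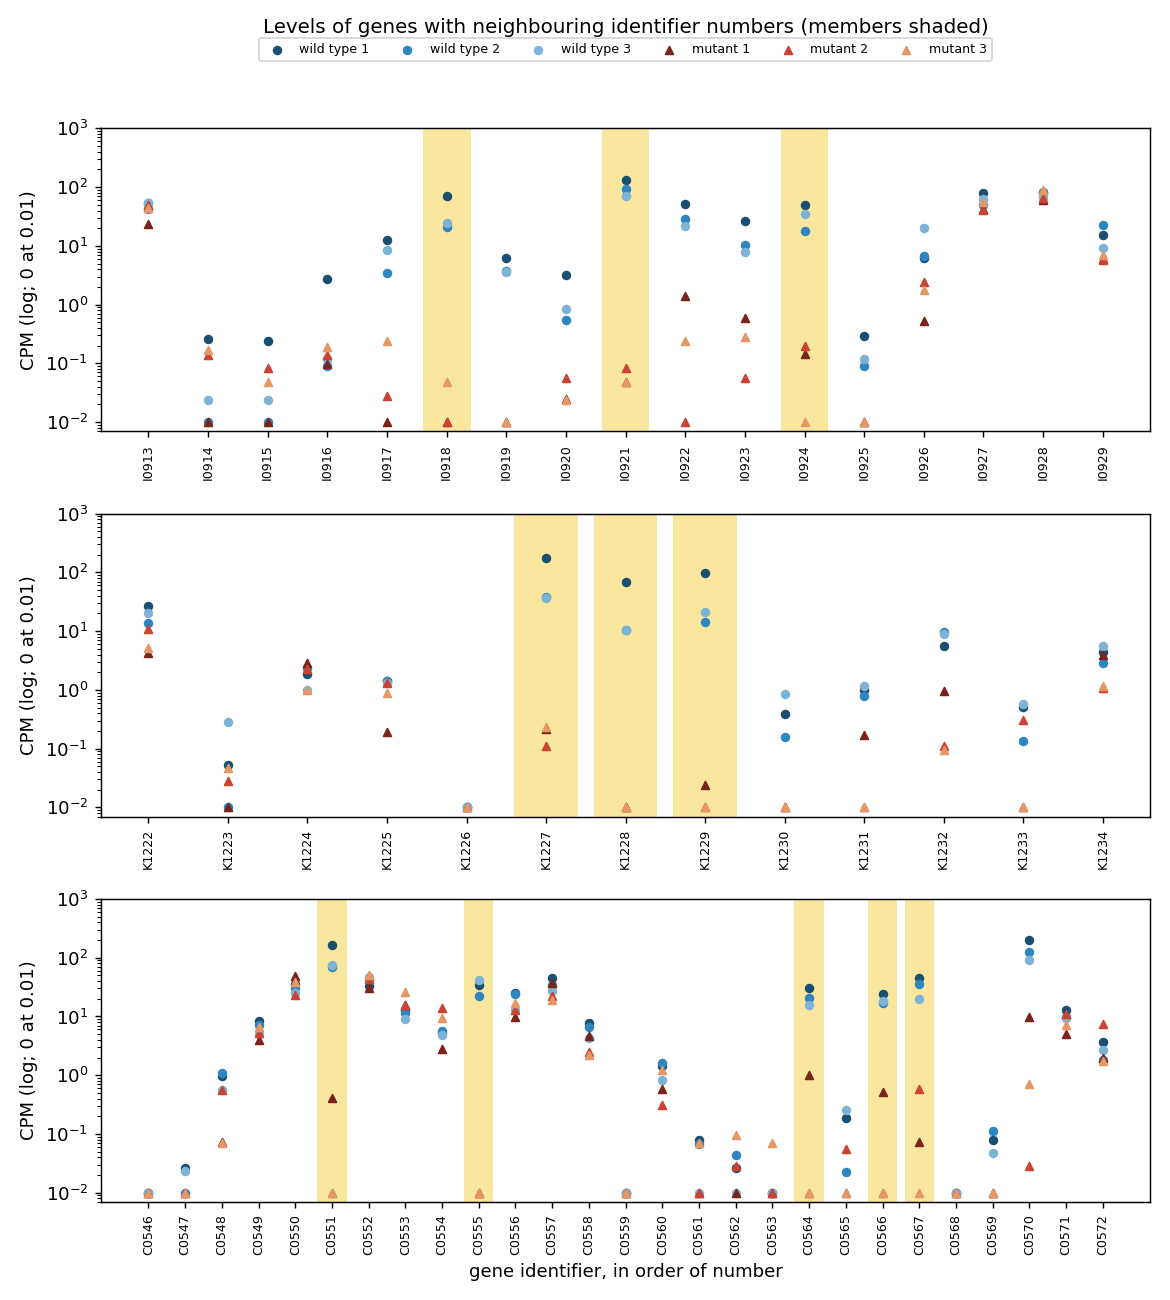
Levels (y, CPM, log axis, 0 drawn at 0.01) of genes in order of identifier number (x) from 5 numbers before to 5 after the members of the I, K and C groups, top to bottom. Members are shaded. Blue circles are the 3 wild-type and red or orange triangles the 3 mutant libraries. The 10 genes from I0917 to I0926, picked as the longest such run, have all circles above all triangles.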

How the data were processed

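RNA was sequenced from 3 wild-type and 3 mutant plants. The authors deposited 1 table of raw read counts per gene, 1 column a library, with 0 columns of other samples. The submitters' processing notes list featureCounts (version 1.22.2), STAR (2.7.11b), Trimmomatic (0.39), SAMtools (1.12) and Picard (2.25.6). Duplicates were marked, per the file headers. Libraries were strand-specific, per the labels. The genome build, the strand setting of the counting and the treatment of duplicate and multiply mapped reads were not stated.

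CPM were counts over library totals. All genes were tested with edgeR 4.0.16 in R 4.3.3 (filterByExpr, minimum count 10, TMM scaling, genotype as only term, two-sided), a test also run on simulated data. DESeq2 1.42.0 and limma 3.58.1 were alternatives. Counting intervals are exact 95% intervals on reads pooled over the plants of a group, without the variation among plants.

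The members and all choices were made with earlier results of these data known. Named are the 20 members with the highest wild-type mean, the 5 with the highest mutant mean, the 5 lowest and 5 highest wild-type CVs, 3 genes on each side of each threshold, and the longest run of identifiers. Marker lists could not be matched to identifiers. Replicate numbers were not taken to pair plants.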

Additional observations from a re-analysis of the deposited data

How the results depend on the processing

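For the 62 members no fold change reversed sign in 868 alternative fits. The rule on the same counts all but fixed this in advance, so it is no measure of robustness. For the 30 named members, 342 of 420 alternative fits kept the side of the threshold, 77 lost the call and 1 gained it. Members called lower numbered 58 under each other scaling (RLE, upper quartile, total counts), without a count filter and with a stricter one. They numbered 60 with DESeq2, 44 with limma-voom and 32 to 60 with 1 library left out. Of all genes tested, the share called lower was 1.21% with RLE, 1.31% with upper quartile and 1.40% with total counts. It was 1.02% without a filter, 1.39% with the stricter one, 4.76% with DESeq2 and 0.906% with limma-voom. With 1 library left out it was 0.289% to 1.93%, so calls moved among all genes too. Of all genes, 309 were called (63 higher, 246 lower); DESeq2 called 1609 (643 higher, 966 lower), total counts alone left 38 higher and moved the median log2 fold change from 0.01 to -0.19, and dropping single libraries left between 62 and 635 (2 to 231 higher and 60 to 404 lower). With a replicate block 103 were called (15 higher, 88 lower), 39 of them members. Between libraries of like number the deviations had correlations of 0.14, 0.20 and -0.03. Between a wild-type and a mutant library of unlike number they ran from -0.19 to 0.03. The labels do not say that numbers pair plants, and whether they do was not tested. The causes were not tested.

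The rule gave 53 members with TMM-adjusted CPM, all among the 62. With a wild-type minimum of 5 CPM it gave 110 genes (mutant share 0.00203%, 29 with a member within 10 numbers, 63 highest in wild-type replicate 1). With 20 CPM it gave 31 (2 at 0 in the mutant, share 0.000528%, 6 near another, 20 highest in wild-type replicate 1, 15 highest in mutant replicate 1). With a mutant limit of 0.5 CPM it gave 40 (share 0.000260%, 10 near another, 15 highest in mutant replicate 1). With 2 CPM it gave 95 (shares 0.501% and 0.00377%, 63 highest in wild-type replicate 1). With 1 library left out it gave 67 to 89 genes, 8 to 21 at 0 in the mutant, a mutant share of 0.00122% to 0.00171% and 18 to 28 near another. Depth limits the lowest levels, as a single count is at least 0.0221 CPM.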
